A study of Oryza sativa with 4 samples.

Results

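The genes described here are those the authors annotated to the response to osmotic stress among the genes near regions bound by OsMADS2 in young rice panicles. OsMADS2 belongs to the PISTILLATA group of MADS-domain transcription factors and takes part in specifying lodicules and stamens. The authors' deposited table of gene ontology (GO) terms lists 46 genes under this term. Of these, 13 were left out: 11 are also listed under inflorescence development, brassinosteroid or nitrogen terms, and the other 2 are OsPHD35 and OsPHD40. The remaining 33 genes lie near 40 regions, out of 2589 genes and 1442 regions in all. Each of the 40 regions is paired with 1 of these 33 genes.

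Plant cells meet osmotic stress, as in drought or salt, by adjusting water flow, ion flow and the content of solutes. Aquaporins are channel proteins through which water crosses the plasma membrane (PIP family) and the vacuolar membrane (TIP family). OSCA proteins, known from Arabidopsis, are calcium-permeable channels opened by a rise in osmolality. Abscisic acid (ABA) carries the signal onward: clade A protein phosphatases 2C hold SnRK2 kinases inactive until ABA receptors capture them, and the kinases then act on transcription factors.

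Binding was measured by chromatin immunoprecipitation and sequencing (ChIP-seq) in wild-type TP309 panicles of 0.3 to 2 cm. The OsMADS2 libraries were 2 immunoprecipitations with affinity-purified anti-OsMADS2 antibody (IP5 and IP6), set against 2 mock immunoprecipitations with rabbit IgG (mock 5 and mock 6) from panicles of the same genotype. Per the file headers, the numbers 5 and 6 stand for biological replicates. The IP libraries held 9142837 and 15934402 uniquely mapped reads, and the mock libraries 13248694 and 16742118. The labels call the tissue inflorescence meristem, and whole panicles were used, so strong binding in few cells and weak binding in many cannot be told apart. Transcripts were not measured in these libraries, and the tissue label could therefore not be checked against marker genes.

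Peaks were called by the authors in 3 pairings: IP5 was set over mock 5 and again over mock 6, and IP6 was set over mock 6. Each peak carries a fold enrichment, the authors' value for 1 IP library over 1 mock library. The call of IP6 over mock 6 shares no library with that of IP5 over mock 5, and this pair is named the independent calls. A confident region is a place where the authors merged peaks found in all 3 lists, and the folds of a region given here are those of its highest peak in each list. The genes were chosen by these peak calls, that is by enrichment in all 3 lists, and by annotation. Their folds are therefore a description, and no test was made on them. They carry no replicate error, and the spread between the independent calls is the only measure of repeatability. Coordinates are as deposited, and their genome build is not stated in the labels or file headers.

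Across the 40 regions enrichment was modest. Their median fold was 3.17 in IP5 over mock 5, against 3.31 over all 1442 regions. The medians over mock 6 were 4.18 for the 40 regions and 3.82 for all with IP5, and 3.24 and 3.08 with IP6. The lowest folds were 2.2, 2.71 and 2.12, where the confident set begins at 2.00 in each list, and the highest were 7.66, 6.52 and 6.32. Taken list by list, a fold of at least 4 was reached by 9 of the 40 regions in IP5 over mock 5 (29.9% of all regions), by 24 in IP5 over mock 6 (42.8%) and by 10 in IP6 over mock 6 (18%). A fold of at least 4 in both independent calls was reached by 3 of the 40 regions, a share of 7.5%. Over all regions it was 7.56%, close to the share of the members. The 3 regions lie at OsERF050, OsGRAM and OSPGYRP. A fold of at least 3 in both was reached by 17 regions, against 34.7% of all regions.

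**Figure D1:**
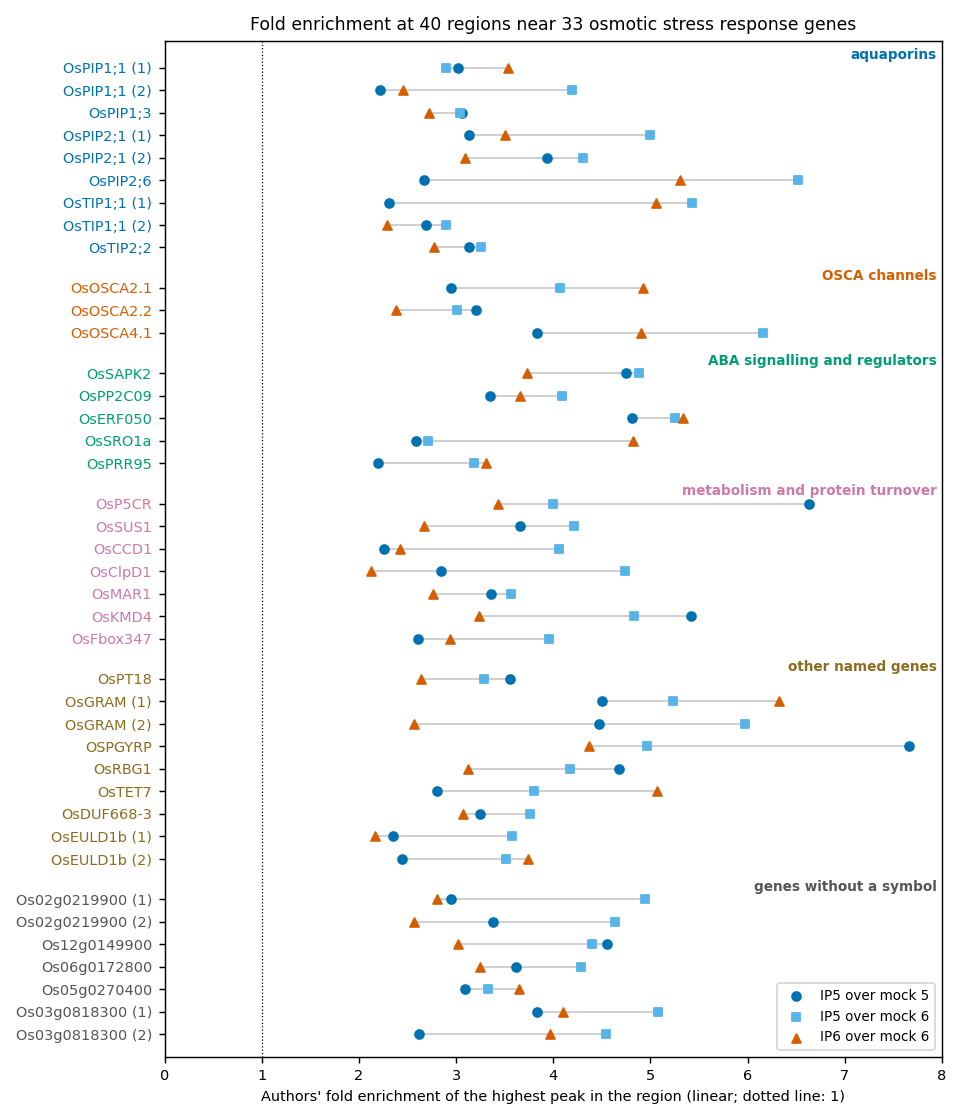
Fold enrichment (linear axis, authors' values) of the highest peak in each of 40 confident regions near the 33 osmotic stress genes, in 3 peak lists shown by marker; a grey line spans the lowest and highest, and a number after a name counts the regions of that gene along its direction of transcription. OSPGYRP and OsP5CR are highest in IP5 over mock 5 (7.66 and 6.63), while OsGRAM is highest in IP6 over mock 6 (6.32).

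Aquaporin genes formed the largest family among the members. There were 6 of them near 9 regions: the plasma membrane aquaporin genes OsPIP1;1, OsPIP1;3, OsPIP2;1 and OsPIP2;6, and the vacuolar aquaporin genes OsTIP1;1 and OsTIP2;2. At OsPIP2;6 (Os04g0233400) the region covered the whole gene (chromosome 4, 8948137 to 8949988). Its folds were 2.67 in IP5 over mock 5 and 6.52 in IP5 over mock 6, while IP6 over mock 6 gave 5.30. The region across the start of OsTIP1;1 (Os03g0146100; chromosome 3, 2564145 to 2564861) had the same order, with 2.31, 5.42 and 5.06. Both genes thus had a modest fold when IP5 was set against mock 5 and a high one in each call that used mock 6. At OsPIP2;6, however, the highest peaks of the independent calls lay apart. That of IP5 over mock 5 was at 1034 to 1347 bp from the start and that of IP6 at -45 to 537 bp. Nearer the start, at 24 to 683 bp, IP5 over mock 5 had a peak of 2.31. OsTIP1;1 had a second region 149 bp beyond its end, with folds of 2.69, 2.90 and 2.28.

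Among the other aquaporin genes, folds stayed at or below 5. OsPIP1;1 (Os02g0666200) had a region across its start (chromosome 2, 27044078 to 27045515) with folds of 3.02, 2.90 and 3.53 in the same order of lists. Its second region, near the end of the gene body, had 2.22, 4.19 and 2.45. OsPIP2;1 (Os07g0448800) likewise carried a pair of regions, across the start (chromosome 7, 15406430 to 15406703) with 3.13, 5.00 and 3.51 and inside the gene with 3.93, 4.30 and 3.09. In OsPIP2;1 the region inside was therefore the higher one in IP5 over mock 5, and the region at the start was the higher one over mock 6. OsTIP2;2 (Os06g0336200) had 3.13, 3.25 and 2.77 in a region just inside its start. OsPIP1;3 (Os02g0823100) had 3.06, 3.04 and 2.72 in a region 2110 bp downstream that lay nearer to another gene, Os02g0823200. Over the 9 aquaporin regions the medians were 3.02, 4.19 and 3.09, and none reached a fold of 4 in both independent calls.

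**Figure D2:**
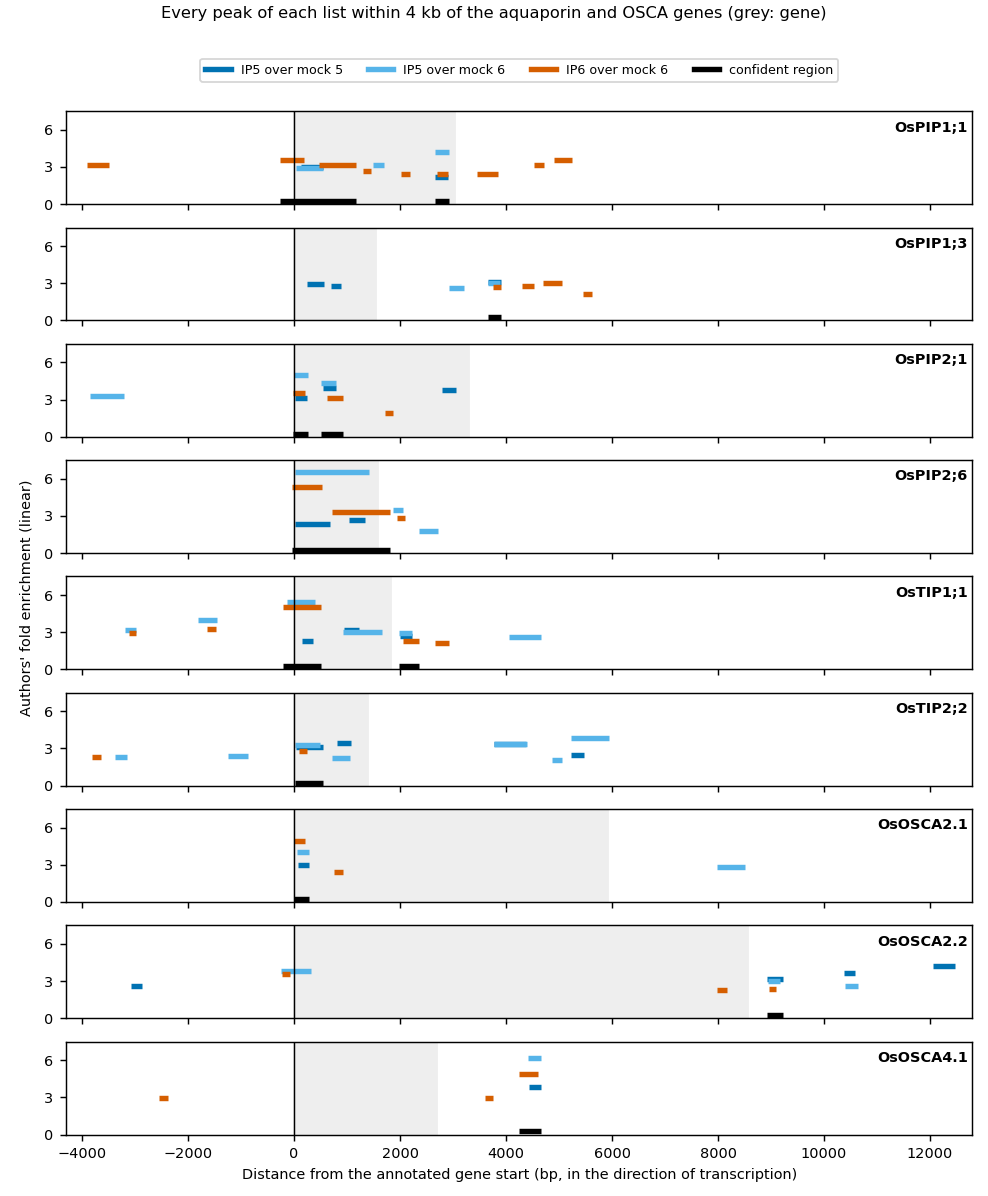
Every peak of the 3 lists within 4 kb of the 6 aquaporin and 3 OSCA genes, by distance from the annotated gene start (bp) and the authors' fold (linear axis); grey marks the gene and black bars the confident regions. OsTIP1;1 carries its highest peaks across the start in both calls over mock 6 (5.42 and 5.06), whereas the confident regions of OsOSCA2.2 and OsOSCA4.1 lie beyond the end.

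The 3 members of the OSCA channel family differed in where their regions lay. In OsOSCA2.1 (Os12g0633600) the region sat just inside the start (chromosome 12, 27160126 to 27160406), and its fold was 2.95 in IP5 over mock 5 and 4.07 in IP5 over mock 6, while IP6 over mock 6 gave 4.92. The OsOSCA4.1 region (Os03g0137400; chromosome 3, 2069292 to 2069714) had 3.83, 6.16 and 4.90 and was 1554 bp beyond the end of that gene. It crossed the start of the neighbouring gene OSVDAC6, named for a voltage-dependent anion channel. The OsOSCA2.2 region (Os03g0673800; chromosome 3, 26622960 to 26623264) had 3.20, 3.01 and 2.38, was 352 bp beyond the gene end and lay inside the neighbour Os03g0673700. A peak of fold 3.82 crossed the start of OsOSCA2.2 itself in IP5 over mock 6, but none did in the independent calls. In IP6 over mock 6 a peak of fold 3.53 lay close by, at -219 to -81 bp from that start. Only the OsOSCA2.1 region thus had its OSCA gene as the nearest gene.

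ABA signalling was represented by a kinase and a phosphatase gene. OsSAPK2 (Os07g0622000), an SnRK2 kinase gene, was enriched 4.75-fold in IP5 over mock 5, with 4.88 in IP5 over mock 6, while IP6 over mock 6 gave 3.72. This region (chromosome 7, 25722661 to 25723100) lay 651 bp beyond the gene end and crossed the start of the neighbour Os07g0622100. OsPP2C09 (Os01g0846300), a clade A phosphatase gene that acts against ABA signalling, had 3.35, 4.09 and 3.65 in a region across its end (chromosome 1, 36344807 to 36346439). That region also crossed the starts of the neighbours Os01g0846150 and Os01g0846400. The start of OsPP2C09 was crossed by a separate peak in all 3 lists, with folds of 1.60, 5.64 and 4.29. The first of these is below the fold of 2.00 at which the confident set begins, and the start of OsPP2C09 is not in that set. Setting IP5 against mock 6 in place of mock 5 changed the fold at that start more than in the confident region. Within that region the IP5 peaks of 3.35 and 4.09 lay inside the gene, at 896 to 1572 and 859 to 1965 bp past the start. Only the IP6 peak of 3.65, at 1821 to 2491 bp, crossed the gene end.

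Regulators of transcription and the clock made up the rest of this group. OsERF050 (Os09g0369000, also named OsDREB6), an AP2/ERF transcription factor gene, was covered from end to end by a region of 2967 bp (chromosome 9, 12215853 to 12218819). Its folds were 4.82, 5.25 and 5.34, above 4 in every list. The highest peak of IP5 over mock 5 nevertheless lay at the start and that of IP6 over mock 6 at the end, with centres 1738 bp apart. At the start alone the folds were 4.82, 4.92 and 4.90. OsSRO1a (Os10g0577800), a gene of the SRO family that includes Arabidopsis RCD1, had 2.59, 2.71 and 4.82 in a region across its start (chromosome 10, 23039330 to 23039929), with IP6 alone high. OsPRR95 (Os09g0532400), a pseudo-response regulator gene of the circadian clock, had 2.2, 3.18 and 3.31 as the highest folds of a region across its start. At the start itself, OsPRR95 was crossed by a peak of 3.18 with IP5 and one of 2.19 with IP6, both over mock 6, and by none in IP5 over mock 5.

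Members of metabolism include genes for proline, sucrose and carotenoid enzymes. OsP5CR (Os01g0948400) encodes pyrroline-5-carboxylate reductase, which makes the compatible solute proline. In a region across its start (chromosome 1, 41720866 to 41721599) it had 6.63 in IP5 over mock 5, rank 27 of the 1442 regions, but 4.00 in IP5 over mock 6, while IP6 over mock 6 gave 3.43. Of these peaks, only that of IP5 over mock 5 crossed the start itself. The peak of IP5 over mock 6 began 1 bp past the start and that of IP6 50 bp past it. OsSUS1, a sucrose synthase gene, had 3.66, 4.21 and 2.67 in a region across its start, where no single peak of IP6 over mock 6 crossed the start. OsCCD1, a carotenoid cleavage dioxygenase gene, had 2.26, 4.06 and 2.42 inside the gene. OsSUS1 and OsCCD1 thus had a fold above 4 in IP5 over mock 6 alone.

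Protein turnover genes included F-box and RING-finger genes, whose proteins act in ubiquitin ligases. OsKMD4 (Os11g0246200), an F-box gene, was covered whole by its region (chromosome 11, 7878225 to 7879747) with 5.42, 4.83 and 3.23. OsFbox347 had 2.61, 3.95 and 2.94 at 309 bp upstream, in a region that lay inside the neighbour Os07g0195350. OsMAR1, a RING-finger gene, had 3.36, 3.57 and 2.76 inside the gene. OsClpD1, also named OsERD1, encodes a Clp chaperone subunit. Its region 749 bp upstream had 2.85, 4.74 and 2.12, the lowest IP6 fold of the 40, and the q-value of that IP6 peak in the authors' deposited list was 0.0162, the largest of the members.

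The highest member folds of the independent calls belonged to OSPGYRP and OsGRAM. OSPGYRP (Os07g0585500) had 7.66 in IP5 over mock 5, which was rank 7 of 1442, with 4.96 in IP5 over mock 6, while IP6 over mock 6 gave 4.37. Its region crossed the start (chromosome 7, 23782079 to 23783250). The IP6 peak of 4.37 lay inside the gene, from 568 to 1086 bp past the start. The IP6 peak across the start had 3.30. OsGRAM (Os03g0187600) had a region 347 bp upstream (chromosome 3, 4591505 to 4592141) with 4.50, 5.24 and 6.32, the last at rank 22. That region lay nearer to another gene, Os03g0187550, at 77 bp. The second region of OsGRAM, across the start (chromosome 3, 4592329 to 4592917), had 4.47, 5.98 and 2.57. The upstream region of OsGRAM was thus high in every call, and the region at the start was high only with IP5.

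OsTET7, a tetraspanin gene, had 2.81, 3.80 and 5.07 in a region across its start (chromosome 5, 1254238 to 1255396), with the IP5 over mock 5 peak wholly inside the gene. It was the only member whose independent peaks did not touch each other: their centres lay 714 bp apart within 1 merged region. OsRBG1 had 4.68, 4.17 and 3.12 inside the gene. OsEULD1b, named for an Euonymus-type lectin domain, had 2.44, 3.52 and 3.74 inside the gene and 2.35, 3.58 and 2.16 in a region 3766 bp upstream, the farthest of the 40. That upstream region lay inside the neighbour Os03g0327700. OsPT18 had 3.55, 3.29 and 2.64 at 941 bp downstream. The first was above the median of all regions in that list (3.31), and the others were below theirs (3.82 and 3.08). OsDUF668-3, with 3.25, 3.76 and 3.07 at 2352 bp upstream, was of middling strength.

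Another 5 members have no symbol in the authors' table and are given by identifier alone. Os03g0818300 had a region across its start with 2.62, 4.54 and 3.96 and another 2299 bp upstream with 3.84, 5.08 and 4.1. That upstream region lay inside the neighbour Os03g0818400, named OsRPS23. Os12g0149900 had 4.56, 4.40 and 3.02 inside the gene. Os02g0219900 had 2.95, 4.95 and 2.81 in a region across its start and 3.38, 4.63 and 2.57 at 2633 bp downstream. That downstream region of Os02g0219900 crosses the start of OsTET2, a gene of the same GO term that the selection left out. Os05g0270400 had 3.09, 3.32 and 3.65 in a region across its start, and Os06g0172800 had 3.62, 4.29 and 3.25 at 3113 bp upstream, where the region crossed the start of Os06g0173000.

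**Figure D3:**
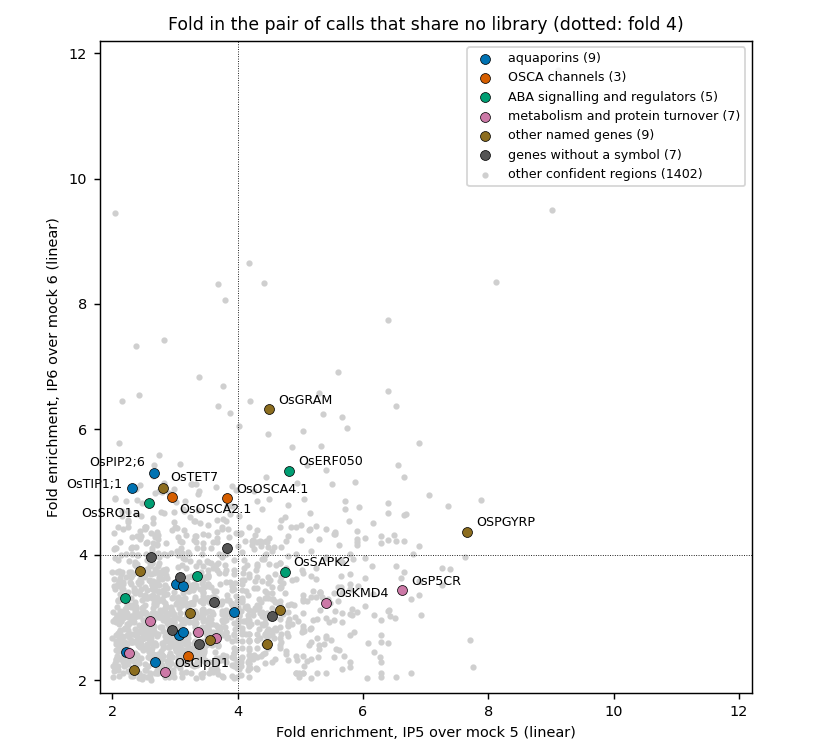
Fold in IP5 over mock 5 (horizontal) and IP6 over mock 6 (vertical), both linear, for the 40 member regions by role and for the 1402 other confident regions in grey; the number beside each role is its count of regions. Of the member regions, 3 lie above 4 on both axes, and most high values on 1 axis are below 4 on the other.

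How far the independent calls repeated each other was read from the 40 regions. Spearman's rho between the folds of the independent calls was 0.16 over the 40 regions and 0.12 over all 1442. Both are descriptions over regions that had to pass the same cut in each list, and neither has a test. The independent peaks touched each other in 39 of the 40 regions, against 93% of all regions. Regions were merged from peaks that overlapped in every list, so touching was largely set by that choice. These shares therefore cannot show how far the calls repeated each other. The centres of the highest peaks were more than 500 bp apart in 7 of the 40 regions, against 8.95% of all. These were the regions of OsERF050, OsPIP2;6, OsPP2C09, OsPRR95, OsTET7 and OsKMD4 and the inner region of OsEULD1b. The fold was higher in IP6 over mock 6 than in IP5 over mock 5 in 19 of the 40 regions, against 42.9% of all. With IP5 itself, the fold was higher over mock 6 than over mock 5 in 31 of the 40 regions, against 61.7% of all.

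The position of the regions was then compared, as a description, with that at the other listed genes. A region crossed the annotated start in 16 of the 33 genes (48.5%), against 26.7% of all 2589 genes. Among the 606 genes with any deposited GO term the share was 32.2%. Counted by pair, it was 16 of 40 for the members (40%, Wilson 95% interval 26.3 to 55.4, counting error only). That compares with 674 of the other 2822 pairs (23.9%, interval 22.3 to 25.5) and 24.1% of all pairs. Some pairs share a gene or a region, which the intervals ignore, so they do not test the difference. Among the other member pairs, 9 regions lay inside the gene, 1 crossed only the end, 7 lay upstream and 7 downstream. The 16 starts include the 3 genes covered whole, OsPIP2;6, OsERF050 and OsKMD4. A region overlapped the gene anywhere in 26 of the 40 pairs, against 45.1% of all pairs. By gene it was 24 of 33, against 47.2% of all genes and 57.1% of genes with any deposited GO term.

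**Figure D4:**
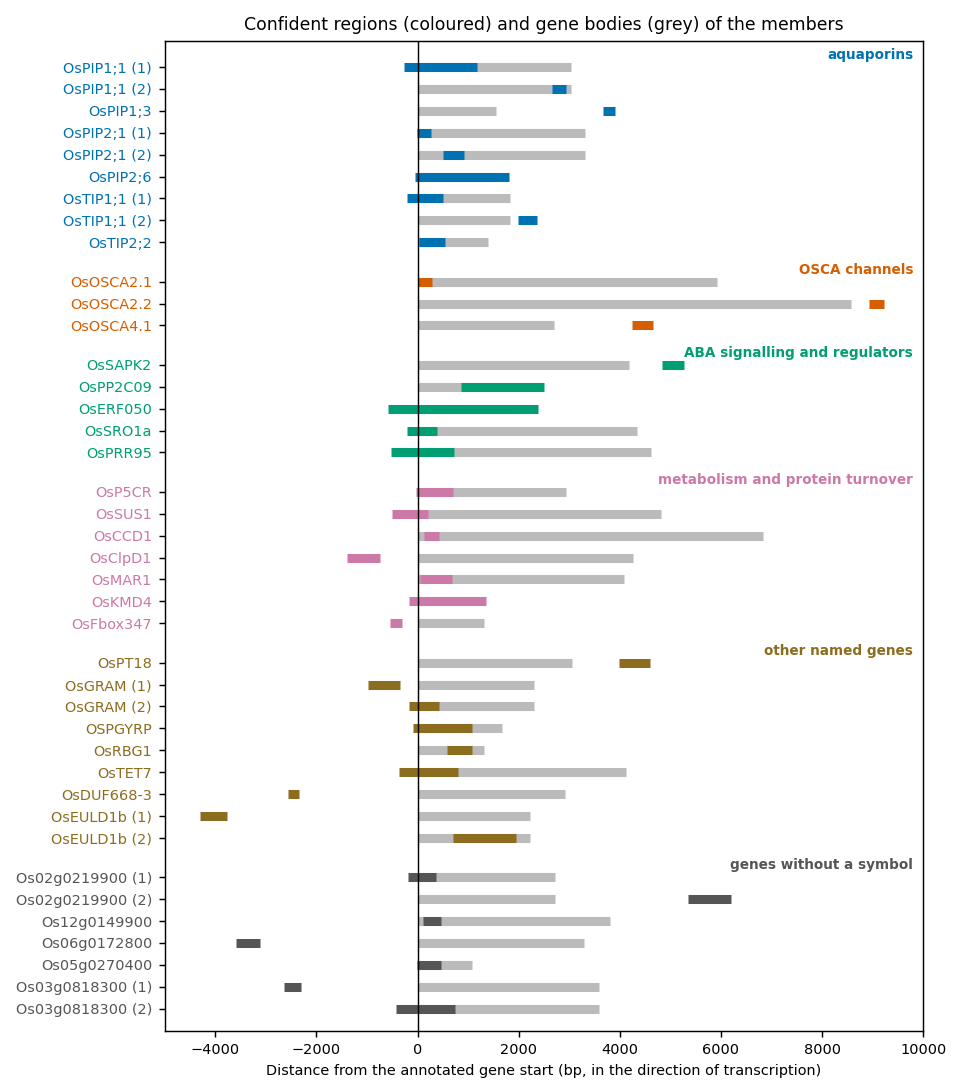
Position of each confident region (coloured by role) and gene body (grey) of the members, in bp from the annotated gene start along the direction of transcription. In 16 of the 40 pairs the coloured bar crosses the start; the upstream regions of OsEULD1b and Os06g0172800 and the downstream regions of OsOSCA4.1, OsSAPK2 and Os02g0219900 are detached from the gene.

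The same was asked of the single peaks from which the regions were merged. A peak crossed the start in both independent calls in 6 of the 33 genes: OsPP2C09, OsERF050, OsSRO1a, OSPGYRP, Os05g0270400 and Os03g0818300. Over all genes of the table it did so in 218 of 2589 (8.42%). Taken list by list, a peak crossed the start in 9 member genes in IP5 over mock 5, against 20.7% of all genes, in 16 in IP5 over mock 6 (34.7%) and in 17 in IP6 over mock 6 (17.3%). OsP5CR, the proline synthesis gene, had such a peak in IP5 over mock 5 alone. OsPIP1;1, OsPIP2;1 and OsPIP2;6, along with OsKMD4, OsGRAM and Os02g0219900, had it in IP6 over mock 6 alone. Small differences in peak edges decide these calls. An IP5 over mock 6 peak began 1 bp past the start at OsP5CR, 2 bp at OsPIP2;1 and 17 bp at Os02g0219900. At OsPIP2;6 it began at 19 bp, at OsKMD4 at 34 bp, at OsPIP1;1 at 41 bp and at OsGRAM at 44 bp. In 10 of the 33 genes no list had a peak across the start.

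Peaks outside the confident regions were counted within 4 kb of each gene. Such a peak was present at 19 of the 33 members in IP5 over mock 5, against 60% of all genes of the table. It was present at 31 members in IP5 over mock 6 (87.1% of all genes) and at 25 in IP6 over mock 6 (53.5%). A peak of IP6 over mock 6 outside the regions touched one of IP5 over mock 5 at 3 members, OsPP2C09, OsSUS1 and OsKMD4, against 3.94% of all genes. At OsPP2C09 these were the peaks across the gene start, with 4.29 in IP6 over mock 6 and 1.60 in IP5 over mock 5. At OsSUS1 the touching peaks had 2.56 and 1.94, and at OsKMD4 2.85 and 1.78, in the same order of lists.

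A region need not belong to the gene it is listed for. Of the 40 regions, 29 are also listed for other genes, against 62.6% of all regions. The member was the nearest gene in 30 of the 40 pairs, against 56.7% of all pairs. At the gene level 27 of the 33 members were nearest to at least 1 of their regions, against 58.4% of all genes. The other 6 were OsPIP1;3, OsOSCA2.2, OsOSCA4.1, OsSAPK2, OsFbox347 and Os06g0172800. Several regions were found at 7 members (21.2%), against 9.81% of all genes and 12.7% of genes with any deposited GO term. These were OsPIP1;1, OsPIP2;1, OsTIP1;1, OsGRAM, OsEULD1b, Os02g0219900 and Os03g0818300.

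Annotation gave the members other features in common. By the authors' deposited table, 26 of the 33 were also listed under response to salt stress. That term lists 195 genes, beside 606 genes under any deposited GO term and 2589 in the whole set. The members were chosen by a related annotation, so this overlap is a description only. All 6 aquaporin genes were listed under transporter activity (14 genes in the table). OsPIP1;1, OsPIP2;1 and OsPIP2;6 made up 3 of the 4 genes under response to silicon dioxide, and OsPIP1;3 and OsPIP2;6 both genes under response to boron. Water channels of this kind thus recur in several terms, which therefore do not count separate genes. The term for osmotic stress itself had 46 of 350 genes and a false discovery rate of 0.00692 in the authors' deposited table, and this value was part of the choice of these genes.

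Other genes of the osmotic and ABA pathway were sought by symbol in 13 lists with 157 symbols. A confident region was listed for 20 of them, of which 11 are members described above. Of the listed OSCA symbols 4 of 11 had a region, of the PIP symbols 4 of 11 and of the TIP symbols 2 of 4. No region was listed for an ABA receptor (0 of 23 symbols), an ABA bZIP factor (0 of 8), an enzyme of ABA synthesis or breakdown (0 of 12), a listed ion transporter (0 of 16) or a listed osmolyte gene (0 of 8). The 2589 listed genes come to 6.57% of the 39387 genes in a RefSeq annotation of another rice assembly, so short lists can hold none, and nothing is read from these zeros. Some symbols name the same gene, and a symbol spelled otherwise in the authors' table would count as having none. OsP5CR and OsERF050 are members but not in these lists.

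Another 9 pathway genes with a region lie outside the GO term. OsOSCA2.3 (Os03g0726300), another gene of the OSCA family, had 4.04 in IP5 over mock 5 and 4.21 in IP5 over mock 6, while IP6 over mock 6 gave 4.33 in a region 668 bp downstream. SAPK7 (Os04g0432000), a relative of OsSAPK2, had 2.87, 5.07 and 3.62 in a region across its start and 2.66, 3.60 and 3.23 in another inside. OsNAC6 (Os01g0884300), a stress-induced NAC transcription factor gene, had 2.63, 4.70 and 3.96 in a region across its start and 2.67, 4.84 and 2.41 in another inside. OsMKK1, a MAP kinase kinase gene, had 2.96, 2.90 and 4.39 in a region across its start. Among these genes OsOSCA2.3 was the only one with a fold above 4 in all 3 lists.

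The rest were below a fold of 4 in at least 1 independent call. OsHK3 (listed first as OHK2), a histidine kinase gene, had 4.14, 3.91 and 3.83 inside the gene, and OsHK4 had 2.61, 2.96 and 2.11 at 120 bp upstream. OsDhn1, a dehydrin gene, had 3.11, 4.12 and 2.11 at 47 bp upstream. OsDREB1C, an AP2/ERF gene, had 2.79, 2.03 and 3.1 at 1611 bp upstream. OsNAC5 had 2.41, 3.97 and 2.33 at 875 bp upstream. OsHK4, OsDhn1 and OsNAC5 were thus near the lower limit of the confident set in IP6 over mock 6.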

How the data were processed

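ChIP-seq of OsMADS2 (2 libraries) and IgG mock (2 libraries) was made from panicles fixed with 1% formaldehyde, with chromatin cut by micrococcal nuclease to 150 to 900 bp, per the labels' protocols. Tools named in the submitters' processing notes are MACS2, Bowtie2, fastp, deepTools and SAMtools, without versions or settings. The authors deposited read counts per library, and for each peak a fold ratio over mock and −log10 values of p and q. Per the file headers, peaks were called for 1 IP over 1 mock library without pooling, and peaks overlapping in all 3 lists were merged and assigned to genes. The score behind the GO terms is a deposited −log10 false discovery rate.

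Peaks were assigned to a region at an overlap of 1 bp or more. A start is the 5′ end of the gene as deposited. The overlap lookup was tested on simulated peaks. Values were computed in Python 3.11.15 with pandas 2.3.3 and numpy 2.4.6, intervals with scipy 1.17.1 and figures with matplotlib 3.10.9. Genes were named by rule: the 10 highest folds in each independent call, genes with several regions and genes of the pathway lists (23 genes); the other 10 are given for completeness. The members and lists were chosen with earlier results of these data known. No test was made, since the members were chosen through these peaks. The planned motif search needs sequence of the files' build and was not run.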

Additional observations from a re-analysis of the deposited data

How the results depend on the processing

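Of the 33 genes and 40 regions, 32 and 39 remained at a q-value of 0.01 or less in each list (OsClpD1 was lost), and 27 and 31 at a fold of 2.5 or more in each. When the independent peaks had to overlap by 50% of each, 16 genes and 19 regions remained. The 17 genes lost included OsERF050 and OSPGYRP, which had a fold of at least 4 in both independent calls, while OsGRAM remained. OsSAPK2, OsPP2C09, OsOSCA2.2, OsOSCA4.1 and OsP5CR were also lost. With the mean in place of the highest peak, the median fold over mock 6 was 4.12 with IP5 and 3.11 with IP6. Without the exclusions the median was 3.31 in IP6 over mock 6. The median of the mean over lists, 3.63, ranged from 3.17 to 3.76 when each library was left out. Regions past the fold in both independent calls numbered 17 at 3, 0 at 5, and 8 at 4 with mock 6 as the control of IP5 (12.4% of all regions). The remaining alternatives stayed within 1.5 times of a count, the interval of a share, or 0.053 of a median fold (SD of the medians of the independent calls). No paired analysis was possible because the values come from peak calls on pairs of libraries and no test was made. Folds rest on 1 IP and 1 mock library each, at 9142837 unique reads in IP5.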

Other observations

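Within 4 kb of the 33 genes there were 76 peaks in IP5 over mock 5, of which 45 lay in the confident regions of the members. In IP5 over mock 6 there were 121 with 45 in those regions, and in IP6 over mock 6 there were 98 with 48. The lists differ in length genome-wide (24169, 58213 and 10602 peaks), so these counts are not comparable between lists. Around OsPIP1;1, the aquaporin gene, IP6 over mock 6 had 9 peaks, of which 3 lay in its confident regions, while IP5 over mock 5 had 2 peaks, both in those regions. Around OsEULD1b there were 7 peaks in IP6 over mock 6 and 2 in IP5 over mock 5.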
